A study of Mus musculus with 1 sample.

Results

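The longest poly(A) tails of nuclear transcripts, those over 200 nt, were described in wild-type 24h-EpiLCs. The tails were chosen by their length. A read was taken when its consensus rested on at least 7 passes, its gene lay outside the mitochondrial genome and its tail, non-A bases included, was longer than 200 nt. This gave 16301 tails, 6330 in replicate 1 and 9971 in replicate 2, of 701976 nuclear reads with at least 7 passes and of 1013675 reads in all. They made up 2.57% (95% Wilson interval 2.51 to 2.63) of the nuclear reads in replicate 1 and 2.19% (2.15 to 2.23) in replicate 2, which is 2.38% ± 0.270 (SD, n = 2). The share was higher in replicate 1, by more than the counting intervals. The reads carry no molecular identifiers, so all intervals given here cover counting error only. Since length chose the tails, every share over 200 nt is a description and was not tested.

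The cells were wild-type ICR mouse embryonic stem cells (ESCs) after 24 h of differentiation into epiblast-like cells (EpiLCs) on Matrigel, in N2B27 medium with activin A, bFGF and KSR. EpiLCs stand for the formative state of pluripotency that follows the naïve state. Tails were read by PAIso-seq, which copies whole transcripts with their tails into circular cDNA libraries for the PacBio platform, where repeated passes around a circle are merged into 1 consensus read. There was 1 sample of 1 group with 2 barcoded replicates in 1 file, and nothing in the labels says whether they came from separate cultures or which barcode is which replicate, so they are numbered by barcode here. Reads of Pou5f1 numbered 124 and 179 and those of the formative marker Otx2 48 and 112. Among other pluripotency genes, Fgf5 had 19 and 18 reads, and Prdm14 and Zic2 had none. Of the somatic markers, Gata4, Sox17, T, Cdx2 and Col1a1 had no read in either replicate. Gata6 had 0 and 1, Sox1 3 and 0 and Pax6 2 and 0.

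A poly(A) tail is added to a new transcript in the nucleus and is bound by poly(A)-binding proteins in the cytoplasm. The CCR4-NOT and PAN2-PAN3 deadenylases then shorten it, and loss of the tail commonly precedes decay of the mRNA. Other terminal transferases can add U or G, and G within or at the end of a tail is known to slow deadenylation.

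Most long tails were plain runs of A. The 2 tails printed here show a tail of median length and one of the longest. They are written 5′ to 3′ as cDNA, in lower case, and capitals mark every base other than A. The tail of Nploc4 had the median length of 217 nt and 1 non-A base, and it rested on 226 passes. The tail of Hspa5 is the longest of at most 300 nt that held a non-A base, a C at its last position.
Nploc4: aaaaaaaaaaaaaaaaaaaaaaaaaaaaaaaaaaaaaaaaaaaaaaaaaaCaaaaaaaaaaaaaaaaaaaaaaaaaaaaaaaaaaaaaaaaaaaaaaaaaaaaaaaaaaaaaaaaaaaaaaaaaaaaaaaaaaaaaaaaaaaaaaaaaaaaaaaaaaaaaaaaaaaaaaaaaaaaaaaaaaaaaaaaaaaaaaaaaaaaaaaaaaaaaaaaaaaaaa
Hspa5: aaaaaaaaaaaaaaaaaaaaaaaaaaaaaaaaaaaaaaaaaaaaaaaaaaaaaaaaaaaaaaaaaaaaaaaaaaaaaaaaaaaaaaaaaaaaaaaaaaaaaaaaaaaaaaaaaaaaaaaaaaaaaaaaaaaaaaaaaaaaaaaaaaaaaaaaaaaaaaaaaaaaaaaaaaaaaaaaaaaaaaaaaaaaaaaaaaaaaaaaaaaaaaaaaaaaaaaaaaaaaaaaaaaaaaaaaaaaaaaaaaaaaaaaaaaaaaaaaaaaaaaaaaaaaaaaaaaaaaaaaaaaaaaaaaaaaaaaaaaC
Nploc4 (ENSMUSG00000039703, GRCm38 chromosome 11, 120380370 to 120437708) encodes a cofactor of the p97 ATPase and Hspa5 (ENSMUSG00000026864, chromosome 2, 34771970 to 34777547) the chaperone BiP.

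The lengths fell off steeply and alike in both replicates. Their median was 218 nt in one replicate and 217 nt in the other, and the quartiles of all 16301 tails were 208 and 234 nt. Above 250 nt there were 2007 tails (12.3%), above 300 nt 215 (1.32%) and above 400 nt 5. The first 10 nt above the threshold held 0.849% and 0.757% of nuclear reads in replicates 1 and 2, and the 10 nt up to 300 nt held 0.0171% and 0.0167%. Since the rule takes only lengths above 200 nt, the medians of genes lay near that bound. Likeness of genes is not read from them. Among 78 genes with at least 20 such tails, the median ran from 209 nt for Pkm, the pyruvate kinase, and the gene Gm7336 to 231 nt for Stip1, an Hsp90 co-chaperone, with a middle value of 216 nt. At the threshold itself, 3786 tails lay in the 5 nt up to 200 nt and 3032 in the 5 nt above it. A non-A base was present in 10.9% and 9.09% of the former and in 11.1% and 10.4% of the latter in replicates 1 and 2.

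**Figure D1:**
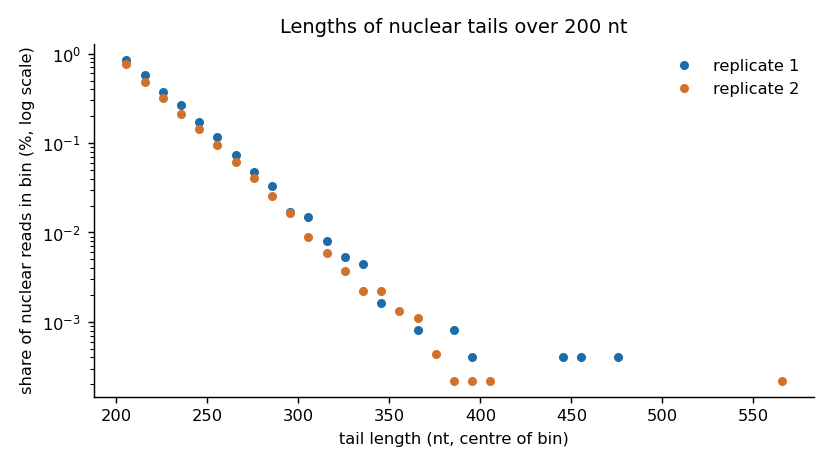
Share of nuclear reads (percent, log axis) in each 10-nt bin of tail length above 200 nt, with 1 point per bin and replicate and empty bins left out. The points of both replicates fall along nearly straight lines to about 350 nt, and single reads make up the bins beyond 400 nt.

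The 5 longest tails came from 5 genes. Ttc26 (ENSMUSG00000056832, chromosome 6, 38381469 to 38427647), an intraflagellar transport gene, held the longest, of 566 nt with 3 non-A bases and 17 passes, in replicate 2. It was the only tail over 200 nt among 7 reads of that gene. In replicate 1, Gm11273 (chromosome 13) held a tail of 480 nt and the processed pseudogene Rpl17-ps3 (chromosome 12) one of 453 nt, both of A alone, from 19 and 10 passes. Psmd11 (chromosome 11), a proteasome subunit, held a tail of 448 nt in replicate 1, and Zranb2 (chromosome 3), a splicing factor, one of 408 nt with 15 non-A bases in replicate 2, both from 10 passes. All 5 thus rested on fewer passes than the median of the long tails, which was 32 and 31.

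Base content was not used to choose the tails. Of the tails over 200 nt, 88.5% held A alone, and 93.6% held an unbroken run of more than 200 A. A non-A base was present in 11.9% in replicate 1 and 11.2% in replicate 2 (11.6% ± 0.462, SD, n = 2). The next shorter class, over 150 and up to 200 nt, had 11.1% and 9.31%, and tails over 100 and up to 150 nt had 11.4% and 8.83%. Per length, with all bases counted, the long tails did not stand apart. They held 0.937 and 0.806 non-A bases per 1000 nt (0.872 ± 0.0930, SD, n = 2), against 0.940 and 0.818 in tails over 150 and up to 200 nt. Without the first and last base, the rates were 0.814 and 0.694 in the long tails against 0.746 and 0.677, higher in both replicates. Tails over 100 and up to 150 nt held more, 1.24 and 0.968 per 1000 nt. With 2 replicates of 1 group, none of these differences was tested.

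Non-A bases were found along the whole tail. Of 1369 long tails with exactly 1 non-A base, 42.3% held C, 29.9% T and 27.8% G. Over all non-A bases of the long tails, C made up 39.5% and T 36.6% in replicate 1. In replicate 2, T made up 42.0% and C 33.6%, so the leading base differed. The last base was T, the mark of uridylation, in 1.04% and 0.772% of the long tails, against 1.64% and 1.02% of tails over 150 and up to 200 nt. By position, the first 10% of the tail held 18.9% and 20.7% of the non-A bases and the last 10% held 20.6% and 24.3%. In the next shorter class the last 10% held 32.3% and 28.7%, more than in the long tails in both replicates.

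Tails with many non-A bases were few. At least 3 non-A bases were found in 1.60% and 1.39% of the long tails, against 0.975% and 0.941% of those over 150 and up to 200 nt, and in 89 of these 240 long tails (37.1%) all were the same base. Where a long tail held exactly 2, both were the same base in 148 of 265 tails (55.8%), beside 54.5% in the next shorter class. At least 10 non-A bases were found in 22 tails of 22 different genes, 12 in replicate 1 and 10 in replicate 2. Of these 22 tails, 11 held a single kind of non-A base and 15 held at least 90% of 1 kind. These 22 tails were mostly of T in 11, of C in 9 and of G in 2, rested on 8 to 118 passes, and carried 10.7% of all 3135 non-A bases in the long tails. Only 14 of all 16301 tails had less than 95% A.

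**Figure D2:**
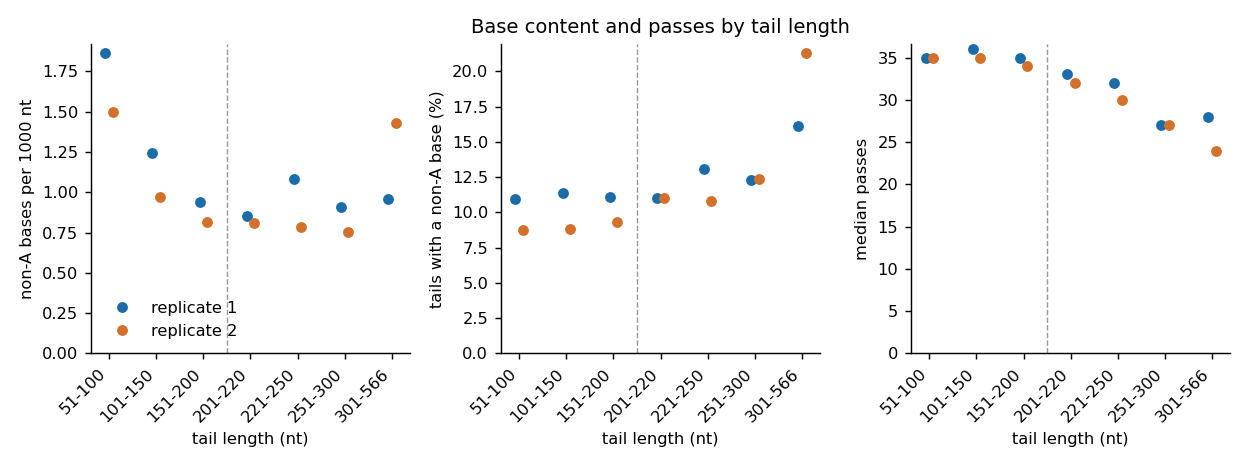
Non-A bases per 1000 nt of tail (left), percent of tails with a non-A base (middle) and median number of passes (right) for nuclear tails in 7 length classes, with 1 point per replicate. The dashed line marks 200 nt. The rate lies between 0.756 and 1.08 from 150 to 300 nt. In the 215 tails over 300 nt it is 0.961 and 1.43, and the share with a non-A base reaches 16.1% and 21.3%. The median passes are lower in every class above 200 nt than in the classes from 50 to 200 nt.

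Tails over 200 nt rested on fewer passes than those below. The median was 32 in replicate 1 and 31 in replicate 2 over 200 nt, 35 and 34 from there down to 150 nt, and 27 in both replicates between 250 and 300 nt. Read from the other side, 2.77% and 2.53% of reads with 7 to 9 passes had a tail over 200 nt, as did 2.25% and 1.74% of reads with 120 passes or more. The intervals of the lowest and highest class did not overlap in either replicate (2.56 to 2.999 and 2.09 to 2.43 in replicate 1, 2.38 to 2.69 and 1.63 to 1.85 in replicate 2). What part passes have in the length was not tested.

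In all 1013675 reads, the barcode listed for the read was the one in its read name. These 2 entries give the same assignment, so this is no check of it. A sequencing well of the PacBio chip should hold 1 molecule, and 984 of the long tails (6.04%) came from a well that gave more than 1 read. In 930 of these the well gave exactly 2 reads. The other read had the same barcode in 512 (55.1%), the same gene in 34 and a tail over 200 nt itself in 39. Replicates 1 and 2 gave 378458 and 635217 of all reads, so unrelated reads would often share a barcode too. Of 16274 wells with a long tail, 437 held reads of both barcodes. No tail sequence with 1 or more non-A bases was seen more than once within a gene and replicate, among 1369 tails with 1 and 505 tails with at least 2 such bases.

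Long tails were found on all kinds of transcripts. Protein-coding genes held 89.2% of them and 87.2% of all nuclear reads, and 2.61% and 2.25% of their reads exceeded 200 nt. The share was 2.41% and 1.78% for processed pseudogenes, whose reads can belong to near-identical parent genes, and 2.04% and 1.74% for long noncoding RNAs, with 53 and 67 long tails. The noncoding value rested on 1 gene. Gm42418, annotated as a lincRNA, gave 1351 of the 2596 and 1749 of the 3843 reads of this class with 1 and 0 long tails, and without it the share was 4.18% (interval 3.20 to 5.44) and 3.20% (2.53 to 4.04), above all nuclear reads in both replicates, an alternative chosen after seeing the data. Other pseudogenes were lowest, with 8 of 847 and 11 of 1326 reads (0.945% and 0.830%). Of these reads, 243 and 299 were of the unprocessed pseudogene Gm28437, which had no long tail. The low value thus rested at least in part on this gene and is not read as a trait of the class. Few long tails were also found in Gm28661, with none in either replicate, and in Gm29216, with 0.581% and 0%. Whether these genes lower the value of this class too was not examined.

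Base content was also set beside length within the long noncoding RNAs. Of their tails over 200 nt, 11 of 53 in replicate 1 (20.8%, interval 12.0 to 33.5) and 12 of 67 in replicate 2 (17.9%, 10.6 to 28.7) held a non-A base. In their tails over 150 and up to 200 nt it was 10 of 191 (5.24%, 2.87 to 9.37) and 17 of 263 (6.46%, 4.07 to 10.1), so that the intervals did not overlap in either replicate. The long tails of protein-coding genes held one in 11.8% and 11.3%. The 23 tails came from 19 genes, among them Snhg1 and Gas5, host genes of small nucleolar RNAs, and Lncenc1 and Platr3, noncoding RNAs known from ESCs. This class was singled out after its values were seen. With at least 15 passes, an alternative chosen after seeing the data, 7 of 46 and 7 of 51 long tails remained (15.2% and 13.7%) against 10 of 162 and 13 of 213, and the intervals then overlapped. Without the first and last base, chosen likewise, 8 of 53 and 9 of 67 long tails held a non-A base, against 7 of 191 and 15 of 263. In that setting the intervals overlapped in replicate 2 but not in replicate 1.

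Among 12816 nuclear genes with a read, 4999 (39.0%) held at least 1 long tail. For 2251 of these it was a single tail, and 1906 held one in both replicates. The 292 genes with 10 or more carried 33.8% of all long tails. Shares of single genes were examined in 1022 genes with at least 50 reads in each replicate, which held 54.5% of the long tails. The median share was 2.14%, with quartiles of 1.39% and 2.996%, and 16 of these genes held no long tail. A gene was called raised when its share was at least 2 times the nuclear share of the same replicate in both replicates, and lowered when it was at most 0.5 times. This held for 21 raised genes, 2.05% of those examined, and 79 lowered genes, 7.73%. In single replicates, 113 and 79 genes reached the upper bound. Both calls use the length that chose the tails and carry no test.

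Agreement between the replicates was limited at these read numbers. Across the 1022 genes the shares of replicates 1 and 2 had a Spearman rho of 0.276, and across the genes with at least 200 reads in each replicate 0.506. Genes are not independent replicates, and all share the same 2 libraries. When the genes were divided into 4 groups of 255 or 256 by their share in replicate 1 alone, the groups held 0.679%, 1.73%, 2.92% and 5.09% there. In replicate 2, which had no part in the division, they held 1.42%, 1.83%, 2.13% and 2.80%. The order was therefore kept in replicate 2, over a narrower range.

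**Figure D3:**
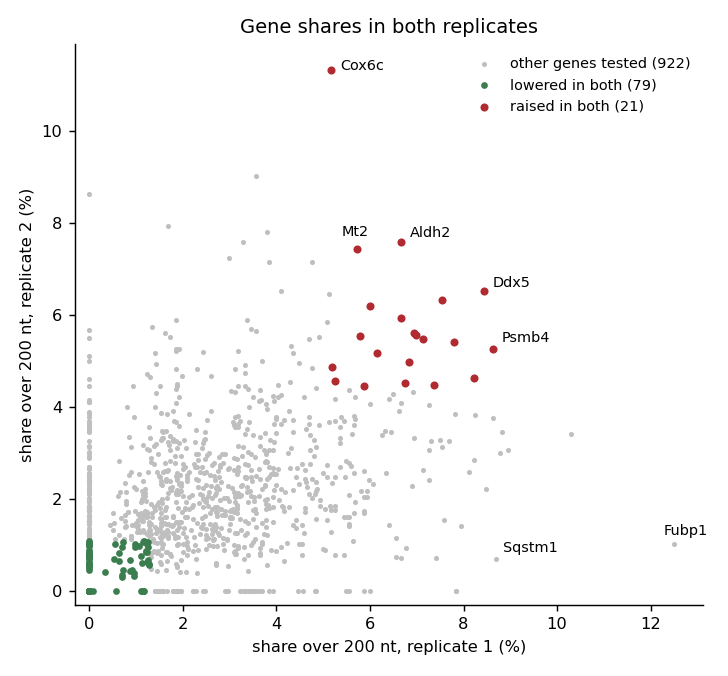
Share of reads with a tail over 200 nt (percent) in replicate 1 (horizontal) and replicate 2 (vertical) for 1022 genes with at least 50 reads in each, 1 point per gene. Of these, 21 genes lie at 2 times the nuclear share or more in both replicates and 79 at 0.5 times or less, while Fubp1 and Sqstm1 are high in replicate 1 alone.

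Genes with high shares in replicate 1 were mostly nearer the common share in replicate 2. The 15 genes with the highest share there held 97 long tails among 1099 reads (8.83%), and in replicate 2 63 among 1894 (3.33%, interval 2.61 to 4.23). The share in replicate 2 was above that of all nuclear reads in 12 of the 15, and at least 2 times it in 3. Fubp1, a DNA-binding regulator of Myc, had 8 of 64 reads over 200 nt in replicate 1 (12.5%) and 1 of 97 in replicate 2 (1.03%). Sqstm1, the autophagy receptor p62, had 10 of 115 (8.70%) and 1 of 143 (0.699%). The values of these 2 genes went to opposite sides of the nuclear share. Nucks1, a chromatin protein, kept an intermediate value, with 7 of 68 (10.3%) and 5 of 147 (3.40%), as did the Hsp90 activator Ahsa1 with 6 of 67 (8.96%) and 3 of 98 (3.06%). Further genes of this group were Gm14303, Oard1, Snrpd1, Psmb4, Amd2, Ddx5, Gclm, Ppan, Gm9825 and Dhx16, between 7.94% and 8.82% in replicate 1 and between 1.41% and 6.52% in replicate 2. Of these, Psmb4, Ddx5 and Ppan were the ones at least 2 times the nuclear share in both.

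The 21 raised genes came from many pathways, and 20 of them encode proteins. They held 113 long tails among 1678 reads in replicate 1 (6.73%) and 166 among 3023 in replicate 2 (5.49%), with 7 to 35 long tails for each gene. They were picked out by the call in both replicates, and their values are a description. A first group acts on RNA. Ddx5 (chromosome 11, 106780355 to 106789185), a DEAD-box helicase of splicing and transcription, had 7 of 83 reads over 200 nt (8.43%, interval 4.1 to 16.4) and 15 of 230 (6.52%, 4.0 to 10.5). Hnrnpa2b1, a splicing regulator, had 9 of 122 (7.38%) and 14 of 313 (4.47%). Chtop, which takes part in mRNA export, had 4 of 60 (6.67%) and in replicate 2 5.94%, with 6 long tails. Ppan and Pdcd11, both of ribosome biogenesis, had 6 of 73 and 3 of 51 in replicate 1 (8.22% and 5.88%) and 5 of 108 and 4 of 90 in replicate 2 (4.63% and 4.44%).

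A second group belongs to the mitochondrion and its respiratory chain. Cox6c, a subunit of cytochrome c oxidase, had the highest pooled share of all 1022 genes, with 3 of 58 reads (5.17%, interval 1.8 to 14.1) and 6 of 53 (11.3%, 5.3 to 22.6), or 8.11% together. Ndufb6, of complex I, had 5 of 70 (7.14%) and 4 of 73 (5.48%), and Atp5g3, of the ATP synthase, 3 of 50 (6.0%) and 6 of 97 (6.19%). Aldh2, the mitochondrial aldehyde dehydrogenase, had 4 of 60 (6.67%) and 5 of 66 (7.58%), and Hspe1, the mitochondrial co-chaperonin, 4 of 76 (5.26%) and 9 of 197 (4.57%). The tails up to 200 nt were also long for some of these genes, with a median of 143 and 138 nt for Cox6c and 142 and 144 nt for Aldh2 in replicates 1 and 2, against 89 and 90 nt for all nuclear reads.

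Protein turnover and chromatin made up the third group. Nedd4, a ubiquitin ligase, had 8 of 138 reads over 200 nt (5.80%) and 19 of 343 (5.54%). Rbx1, the RING subunit of cullin ligases, had 4 of 53 (7.55%) and 6 of 95 (6.32%), and Psmb4, of the proteasome core, 5 of 58 (8.62%) and 4 of 76 (5.26%). Dnmt1, the maintenance DNA methyltransferase, had 6 of 77 (7.79%) and 4 of 74 (5.41%), and Cbx1, the heterochromatin protein HP1 beta, 4 of 65 (6.15%) and 6 of 116 (5.17%). Tmem258, a subunit of the oligosaccharyltransferase, had the most long tails of the 21 genes, 14 of 205 (6.83%) and 21 of 422 (4.98%). The remaining raised genes were Mt2, a metallothionein, with 5.71% and 7.44%, the unconventional myosin Myo10 with 6.94% and 5.61%, the dUTPase Dut with 6.76% and 4.51%, the retromer subunit Vps29 with 5.19% and 4.88%, and the processed pseudogene Gm8129 with 6.98% and 5.56%.

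The genes with the most long tails were abundant transcripts and mostly near the common share. Hsp90ab1, a cytosolic Hsp90, led with 38 of 2138 reads (1.78%) and 98 of 4321 (2.27%). The processed pseudogene Gm15459 followed with 48 of 3830 (1.25%) and 85 of 8003 (1.06%), less than 0.5 times the nuclear share in both. The arginine methyltransferase gene Prmt1 was above it, with 35 of 954 (3.67%, interval 2.6 to 5.1) and 31 of 746 (4.16%, 2.9 to 5.8). Nasp, a histone chaperone, had 16 of 415 (3.86%) and 41 of 1251 (3.28%). The ribosomal protein gene Rpl4 was below, with 22 of 1517 (1.45%) and 35 of 2641 (1.33%). The other genes of the leading 10 were Gm13394, Ptma, Gm9800, Npm1 and Eno1b, between 1.91% and 3.24% in replicate 1 and between 2.01% and 2.29% in replicate 2.

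Low shares were then examined. The 10 genes with the lowest share in replicate 1, among those with at least 200 reads in each, held 24 long tails among 5415 reads there (0.443%) and 67 among 8007 in replicate 2 (0.837%, interval 0.659 to 1.06). In 9 of the 10 the value of replicate 2 was below that of all nuclear reads. Slc25a5, an ADP/ATP carrier, was the exception, with 0 of 217 and 9 of 231 (3.90%). Pabpc1, the main cytoplasmic poly(A)-binding protein, had 4 of 623 (0.642%) and 9 of 1370 (0.657%). Gdi2, a Rab regulator, had 1 of 300 (0.333%) and 4 of 951 (0.421%), and Dppa5a, a pluripotency-associated gene, 8 of 1143 (0.700%) and 4 of 419 (0.955%). The stress granule genes Caprin1 and G3bp2 had 0.450% and 0.532% in replicate 1 and 1.43% and 1.47% in replicate 2. In Gm42418, named above, the tails up to 200 nt had a median of 1 nt. The remaining genes were Gm28437, an unprocessed pseudogene with no long tail among 243 and 299 reads, Gm8730 and Mkrn1.

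By function, most gene lists lay close to all nuclear reads. With both replicates pooled, the highest shares among lists of protein-coding genes were those of antioxidant enzymes, 52 of 1337 reads (3.89%, interval 2.98 to 5.06) and 66 of 2244 (2.94%, 2.32 to 3.72), and of glycolytic enzymes, 47 of 1550 (3.03%, 2.29 to 4.01) and 73 of 2103 (3.47%, 2.77 to 4.34). In both lists the remaining tails were long too, with medians of 110 and 108 nt and of 111 and 115 nt. When tails over 150 nt alone were taken as the base, 14.8% of those of the antioxidant enzymes and 14.1% of those of the glycolytic enzymes exceeded 200 nt, against 14.9% for all nuclear reads. None of 11 and 8 genes examined was raised, and 1 antioxidant gene was lowered, beside 2.05% raised and 7.73% lowered over all 1022 genes. Within the lists, Gclm, a subunit of the enzyme that makes the glutathione precursor, had 7 of 85 (8.24%) and 5 of 131 (3.82%), the glycolytic enzyme Aldoa 14 of 384 (3.65%) and 21 of 482 (4.36%), and Tpi1, another, 1 of 112 (0.893%) and 2 of 177 (1.13%).

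Among the other metabolic and housekeeping lists, subunits of oxidative phosphorylation encoded in the nucleus had 2.83% and 2.36%, with 3 of 24 genes raised and 1 lowered and a median gene share of 2.74%. Over all 1022 genes examined, 2.05% were raised and 7.73% lowered and the median was 2.14%. Their tails up to 200 nt had medians of 107 and 108 nt. Proteasome subunits had 2.76% and 2.39%, with 1 of 24 genes raised and 1 lowered, and SR and hnRNP splicing regulators 2.79% and 2.43%, with 1 of 19 raised and none lowered. Cytosolic ribosomal protein genes had 2.40% and 1.97%, and none of 22 was raised or lowered. Within them Rps21 had 10 of 195 (5.13%) and 9 of 245 (3.67%), and Rps3 6 of 411 (1.46%) and 6 of 727 (0.825%). Translation factors had 2.26% and 1.92%, with none of 32 genes raised and 3 lowered, among them Eef1b2 with 1 of 144 (0.694%) and 1 of 334 (0.2994%). Cholesterol synthesis enzymes had 3.32% and 2.18%, and none of 6 genes was raised or lowered. For mitochondrial ribosomal proteins, zinc finger proteins, solute carriers, cyclins, early-response genes, actins and tubulins and histone variants, the intervals included the nuclear share in each replicate. No gene of them was raised, and 1 was lowered, among 7 mitochondrial ribosomal protein genes with a median share of 1.15%.

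**Figure D4:**
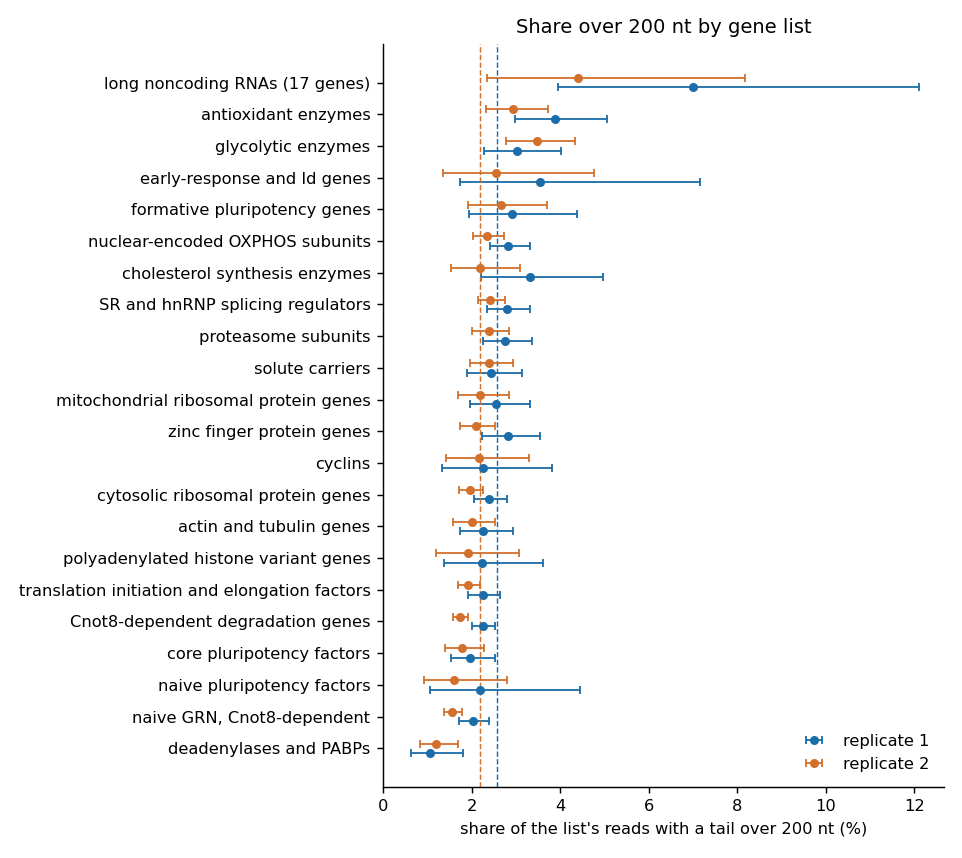
Share of each gene list's reads with a tail over 200 nt (percent) in replicate 1 and replicate 2, with 95% Wilson intervals as bars. Dashed lines mark the share of all nuclear reads, 2.57% and 2.19%. The deadenylase and poly(A)-binding protein list, Pabpc1 included, lies lowest in both replicates and the 17 noncoding RNAs highest.

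The machinery that shortens and binds tails had a low share, which rested largely on Pabpc1. Genes of CCR4-NOT, PAN2-PAN3 and the poly(A)-binding proteins had 13 of 1228 reads over 200 nt (1.06%, interval 0.620 to 1.80) and 30 of 2521 (1.19%, 0.835 to 1.69), below the nuclear share in both. None of 4 genes examined was raised and 2 were lowered, beside 2.05% raised and 7.73% lowered over all 1022 genes. So few genes give no result on the list. The lowered genes were Pabpc1, given above, and Paip2, an inhibitor of poly(A)-binding protein, with 2 of 210 (0.952%) and 1 of 306 (0.327%). The scaffold gene Cnot1 had 1 of 52 (1.92%) and 4 of 124 (3.23%), and Cnot10 1 of 52 and 2 of 92. Pabpc1 alone gave 623 of the 1228 and 1370 of the 2521 reads of the list. Without it, an alternative chosen after seeing the data, the share was 9 of 605 (1.49%, interval 0.785 to 2.80) and 21 of 1151 (1.82%, 1.20 to 2.77), and the intervals included the nuclear share.

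Genes of pluripotency were spread around the common share. The formative genes had 22 of 754 reads over 200 nt (2.92%, interval 1.93 to 4.38) and 34 of 1277 (2.66%, 1.91 to 3.70). Among them Dnmt3l, a cofactor of de novo DNA methylation, had 10 of 208 (4.81%) and 12 of 365 (3.29%), and the methyltransferase Dnmt3a 1 of 194 (0.515%) and 4 of 300 (1.33%). The core factors had 1.97% and 1.79%, in which the key factor Pou5f1 held 5 of 124 (4.03%) and 8 of 179 (4.47%) and L1td1, an RNA-binding protein of ESCs, 8 of 448 (1.79%) and 19 of 1321 (1.44%). Dppa5a gave 1143 of the 2999 and 419 of the 3691 reads of this list, with 8 and 4 long tails. The value of the list thus rested in part on that gene. The naïve factors had 7 of 320 (2.19%, interval 1.06 to 4.45) and 12 of 746 (1.61%, 0.923 to 2.79). None of the 16 genes of these 3 lists with enough reads was raised, and 2 were lowered, Dppa5a and Nr0b1, the latter with 0 of 80 and 1 of 121. Beside 2.05% raised and 7.73% lowered over all 1022 genes, these counts are not read as a result about pluripotency genes.

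Another pair of lists came from the study, which knocked out Cnot8, a CCR4-NOT deadenylase. Its Cnot8-dependent degradation genes are those that declined during normal EpiLC differentiation and had higher expression in knockout cells. The study measured decay itself for representative genes only, in ESCs. Only membership was used, and the lists are not independent of these cells. Cnot8-dependent degradation genes had 291 of 12943 reads over 200 nt (2.25%, interval 2.01 to 2.52) and 438 of 25185 (1.74%, 1.58 to 1.91), and the naïve GRN genes among them 130 of 6411 (2.03%, 1.71 to 2.40) and 209 of 13359 (1.56%, 1.37 to 1.79). Both lay below all nuclear reads in both replicates. Their tails up to 200 nt were also shorter, with medians of 78 and 81 nt and of 78 and 78 nt. Of tails over 150 nt, 14.9% and 13.99% exceeded 200 nt, near the 14.9% of all. None of 51 and 31 genes examined was raised, and 10 and 7 were lowered, with median gene shares of 1.42% and 1.38%, beside 2.05% raised, 7.73% lowered and a median of 2.14% over all genes examined. Nothing is read from these counts, since the calls use the length that chose the tails. Apoe, the apolipoprotein E gene, and Dusp27 had no long tail in either replicate, among 126 and 197 and among 50 and 66 reads. Kat7, a histone acetyltransferase, had 5 of 64 (7.81%) and 6 of 156 (3.85%), and the co-chaperone gene Sugt1 5 of 150 (3.33%) and 10 of 224 (4.46%).

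The list of noncoding RNAs had the highest share, on few reads. It held 11 of 157 reads over 200 nt (7.01%, interval 3.96 to 12.1) and 9 of 204 (4.41%, 2.34 to 8.17), and none of its 17 genes reached 50 reads in both replicates. Of its tails over 150 nt, 27.8% exceeded 200 nt. The genes below were looked at after their values were seen. Snhg1 had 2 of 6 and 3 of 17 reads over 200 nt, Gas5 1 of 16 and 4 of 32, and Tug1 1 of 5 and 1 of 7. Malat1, a nuclear RNA whose mature end is made without a poly(A) tail, had none among 31 and 66 reads and a median of 4 nt for its shorter tails.

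By chromosome, the autosomes lay between 2.10% and 3.41% in replicate 1 and between 1.79% and 2.65% in replicate 2, with chromosome 19 highest in both, and chromosome X had 2.43% and 2.30%. Reads of chromosome Y, from 11 genes, had 14 long tails in replicate 1 (13.9% of reads, interval 8.44 to 21.9) and 13 among 223 reads in replicate 2 (5.83%, 3.44 to 9.72). This share rested mainly on 2 genes and is not read as a trait of the chromosome. Of these 27 tails, 13 were of Gm47283 (ENSMUSG00000096768, chromosome Y, 90784738 to 90816464), with 9 of 41 reads and 4 of 42, and 10 of Eif2s3y, the Y-linked copy of a translation initiation factor subunit, with 3 of 41 and 7 of 114. Eif2s3y has a related copy on chromosome X, with which it can share reads. Both genes fell short of 50 reads in replicate 1 and were singled out after their values were seen.

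Features of the gene went with the share. It was 3.03% and 2.93% for genes with 1 to 9 reads and 1.84% and 1.62% for the 60 genes with 1000 reads or more, and each step between them was downward in both replicates. In protein-coding genes alone, it was 2.92% and 2.95% with 1 to 9 reads, 3.002% and 2.73% with 10 to 29, and 1.93% and 1.75% with 1000 or more, so that the first step went upward in replicate 1. The share was also higher where the gene's other tails were longer. Genes whose tails up to 200 nt had a median of at most 60 nt had 1.87% and 1.51% over 200 nt, and those with a median above 120 nt 3.88% and 3.40%. Across the 1022 genes rho was 0.239 with both replicates pooled. Between the share in replicate 1 and the median in replicate 2 it was 0.149. Length of the longest annotated transcript showed no such course, with 2.71% and 2.57% for transcripts up to 1000 nt and 2.74% and 2.37% for those over 5000 nt, although the median of the tails up to 200 nt went from 106 to 81 nt between these classes.

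**Figure D5:**
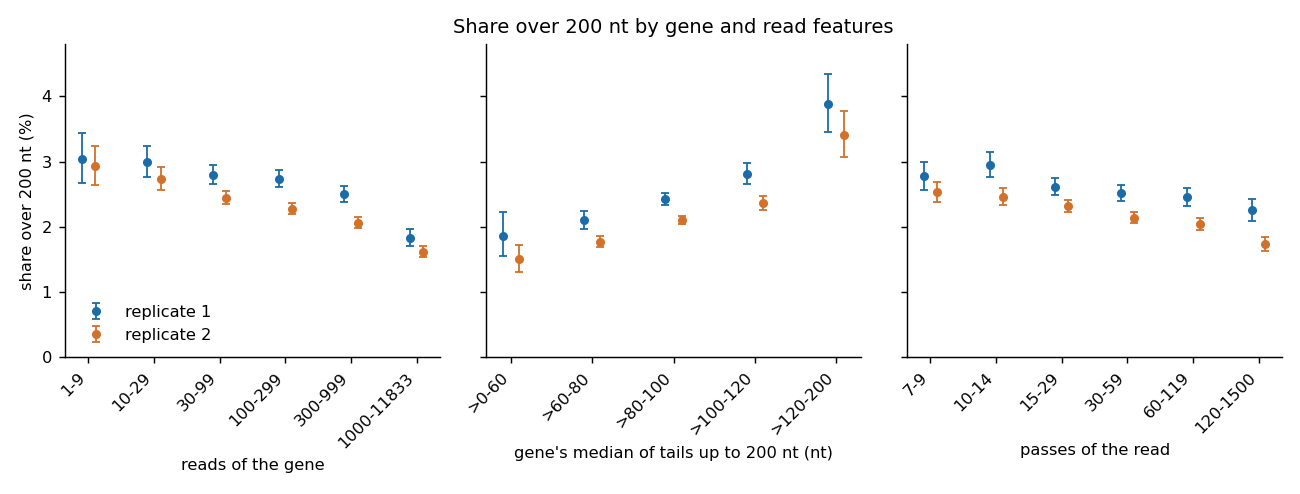
Share of reads with a tail over 200 nt (percent) by the number of reads of the gene (left), the gene's median of tails up to 200 nt among genes with at least 50 reads (middle) and the passes of the read (right), in replicate 1 and replicate 2 with 95% Wilson intervals. The share declines with reads in both replicates, is lower at 120 passes or more than at 7 to 9, and is highest for genes whose other tails have a median over 120 nt.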

How the data were processed

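PAIso-seq was done on total RNA of wild-type 24h-EpiLCs, in 2 barcoded replicates of 378458 and 635217 reads. As the study's methods and notes give it, circular consensus reads were demultiplexed, mapped to mm10 with minimap2 2.17 and assigned to genes with featureCounts 2.0.1, and the unaligned 3′ end, extended over adjoining A, was taken as the tail, so that A of the genome next to a tail can count as tail. The deposited table gives passes and the counts of A, T, C, G and non-A bases of each tail, made by the authors without normalization. Here tail length was A plus non-A bases. Genes were placed with GENCODE vM21 (GRCm38), and 31 reads of genes absent from it were left out. Shares have 95% Wilson intervals, and the floor of 3 reads was 0.00122% and 0.000658% of nuclear reads. With 1 group, no test was run.

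Named genes were, among those with at least 50 reads in each replicate, the 15 highest in replicate 1, the 10 with the most long tails, the 10 lowest in replicate 1 among genes with at least 200 reads, up to 4 for each of 22 lists, and the genes of the 5 longest tails. Raised genes are named too, chosen after their values were seen. A gene and some tail sequences that the rule takes are not reported here. Members and lists were chosen with earlier results of these data known. Alternatives changed passes, length, A content, identical tails, wells, gene type, reads for a gene, end bases and replicates. The scripts were tested on simulated data. All steps ran in Python 3.11.15 with matplotlib 3.10.9, scipy 1.17.1, pandas 2.3.3 and numpy 2.4.6.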

Additional observations from a re-analysis of the deposited data

Results flagged for a closer look

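Tails over 200 nt were also found in reads that the report leaves out, each above the limit that a count of 0 allows. Among reads with at least 7 passes that were assigned to no gene, 2500 of 144083 (1.74%, 95% Wilson interval 1.67 to 1.80) had such a tail, with 2.12% in replicate 1 and 1.51% in replicate 2, and 11.1% of these tails held a non-A base. Mitochondrial reads had 12 of 101530 (0.0118%, 0.00676 to 0.0207), 6 in each replicate. Among nuclear reads with fewer than 7 passes, 1365 of 51533 (2.65%, 2.51 to 2.79) exceeded 200 nt, with 2.63% and 2.66%. A non-A base was present in 22.2% of them, against 11.5% of the long tails with at least 7 passes. None of these values was compared by a test.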

How the results depend on the processing

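The share of nuclear tails over 200 nt (2.32% with both replicates pooled) stayed within the SD of the replicates under every alternative but 1: it was 3.25% when identical tail sequences of a gene and barcode were counted once, a setting that merges A-only tails of equal length, and 2.19% and 2.57% in single replicates. The count of raised genes moved from 21 to 42 with at least 30 reads in each replicate and to 3 with at least 100. It was 206 without replicate 1 and 115 without replicate 2. There the limit of 50 reads held for the remaining replicate alone, so these 2 counts do not cover the same genes as the 1022. Under other alternatives the count of raised genes ran from 16 to 25, but with at least 15 passes 10 of the 21 genes remained among 25, and with identical tails counted once 9 among 24. The rate of 0.857 non-A bases per 1000 nt became 0.742 with at least 15 passes and 0.741 without the first and last base, and was 0.806 and 0.937 in single replicates. The median of 31 passes became 44 with at least 15 passes, 28 without a filter and 32 in wells with a single read, and was 31 or 32 without either replicate. Noncoding RNA tails with a non-A base went from 19.2% to 14.4% with at least 15 passes and 14.2% without end bases, both chosen after seeing the data. The pooled share of long noncoding RNAs went from 1.86% to 3.56% without Gm42418, and that of the deadenylase and poly(A)-binding protein list from 1.15% to 1.71% without Pabpc1, also chosen then. No paired analysis was possible because a single group was measured. Genes with 50 to 100 reads hold few long tails each, so single shares are imprecise.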

Other observations

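The read names carry a plus or minus sign whose meaning is not given in the sources used here. Tails over 200 nt made up 2.79% of nuclear reads with a plus sign in replicate 1 and 2.35% in replicate 2, and 2.34% and 2.02% of those with a minus sign, with intervals that did not overlap in either replicate (2.70 to 2.89 and 2.26 to 2.43, 2.29 to 2.41 and 1.97 to 2.08). Wells with a single read had 2.59% and 2.21% over 200 nt, and wells with more than 1 read 2.34% and 1.92%.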
